A study of Rattus norvegicus with 18 samples.

Results

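NRK-52E cells kept confluent in DMSO were compared at 24 h and at 6 h, to see what a tubule cell line under vehicle alone changes between these times. NRK-52E is an established epithelial line from the kidney of the Osborne-Mendel rat, and the labels place it in the proximal tubule. The arrays were chosen by the treatment and time in their titles, 3 for DMSO at 24 h and 3 for DMSO at 6 h, which makes 6 of the 18 arrays of the study. The other 12 arrays are DMSO at 72 h and chlorothalonil, an organochlorine fungicide, at 1.1 µM for 6, 24 and 72 h, again 3 arrays per group. All cultures, the vehicle ones included, held 0.1% DMSO and serum-containing medium and were confluent in 6-well plates. No culture without DMSO was analysed here, so time in culture and time in DMSO cannot be told apart. The sources used here do not say whether the medium was renewed, nor when the arrays were processed, so that time and processing batch cannot be told apart either.

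Epithelial cells that have formed a closed layer slow their division, and quiescent cells typically lower the genes of DNA replication, mitosis and ribosome production. Cholesterol and fatty acid synthesis are controlled by the sterol-sensing SREBP factors, which raise the enzymes of both pathways when cell sterol or unsaturated fatty acid is low. Actin genes and the early response genes Fos and Egr1 share a regulator, serum response factor, which answers serum and the state of the cytoskeleton. The kidney tubule lives on fatty acid oxidation and transport, and cultured tubule lines keep only some of that programme.

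Expression values are the authors' log2 values from Affymetrix rat arrays. A gene is called changed when its Benjamini-Hochberg adjusted p from limma, over 9149 genes, is under 0.05, and a gene at or below log2 4 on every array of a group is said to be at background in that group. Of the proximal tubule list, 22 of 32 genes did not pass the filter on low values. Among them were the phosphate transporter Slc34a1, the glucose transporter Slc5a2, the endocytic receptors Lrp2 and Cubn and the factor Hnf4a. The labelled cell type is thus not marked by these genes, but 7 others of the list were tested. Ggt1, for example, stood at 6.70 at 24 h and 8.65 at 6 h, and Gatm at 9.94 and 9.21. The epithelial genes Cdh1, Epcam, Krt18 and Krt19 were also below the filter, while Krt8 stood at 13.54 at 24 h and 14.23 at 6 h, and Vim, the filament of mesenchymal and cultured cells, at 15.39 and 15.38. Defining markers of 3 other cell types were mostly below the filter. Of these, 0 of 10 distal nephron, 1 of 7 endothelial and 1 of 7 leukocyte genes were tested, and neither of these 2 genes (Tek and Cd68) was called. Of 8 fibroblast markers 3 were tested, and 2 were brighter than Ggt1 at both times. Col3a1 stood at 10.53 at 24 h and 9.59 at 6 h, and Fbln2 at 10.08 and 11.18. Col3a1 was higher by 0.95, Fbln2 lower by 1.10 and Col1a1 not called. Of 5 podocyte markers Wt1 and Synpo were higher by 0.75 and 2.33. The part these markers have in the results was not tested.

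Arrays of one group correlated at 0.992 to 0.997 and arrays of the other time at 0.919 to 0.930. The difference between 3′ and 5′ actin probes, a sign of RNA integrity, was 1.23, 1.27 and 1.32 at 24 h, against 0.93, 1.12 and 0.96 at 6 h, with no overlap, while that of Gapdh lay near −0.23 in both. The spiked poly-A controls averaged 9.17, 10.31 and 10.51 at 24 h, against 10.12, 10.32 and 10.08 at 6 h, and the hybridization controls lay between 11.84 and 12.10 at 24 h, against 10.75 to 12.05 at 6 h. Replicate 1 at 24 h and replicate 2 at 6 h thus stood apart in these controls, and counts without them are given where they matter.

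Between 6 and 24 h nearly 3 in 4 genes measured changed in DMSO cultures. Of 9149 genes 6673 were called (72.9%), 3010 of them higher (32.9%) and 3663 lower (40.0%) at 24 h, and 6826 genes (74.6%) had no overlap between the arrays of both times. Changes past 2-fold numbered 1036 upward and 1071 downward. The median of all genes was −0.05. The balance of directions depended on the scale: with each array scaled to its poly-A controls the median moved to 0.13 and 2968 genes were called, 1852 higher and 1116 lower. Without DMSO 24 h replicate 1 that scale gave the opposite tilt, a median of −0.30 with 1367 genes higher and 3316 lower. On the deposited scale, leaving out both arrays named above gave 2749 higher and 3549 lower. With calls this common, a count of members is read against these shares, and the lists below are described by how far they stand from them. In whole cultures, fewer cells in a state and less RNA per cell in that state cannot be told apart.

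The gene with the highest change was Tm7sf2, the sterol C14 reductase of cholesterol synthesis. Its log2 level was 11.46, 11.60 and 11.41 at 24 h, against 3.31, 2.96 and 3.80 at 6 h. All arrays at 6 h were at background and all arrays at 24 h were bright, so the rise is at least 179.6-fold (log2 change 8.13, SE 0.32, adjusted p = 1.67e-11). Dhrs3, a retinaldehyde reductase, had 9.26, 9.15 and 9.0 at 24 h, against background levels of 2.68, 3.09 and 3.96 at 6 h. It was at least 35.2-fold higher. Selenop, the secreted selenium carrier, averaged 8.90 ± 0.29 at 24 h and 3.57 ± 0.67 at 6 h (SD, n = 3 each), and Ropn1l, a protein of sperm tails and motile cilia, 10.67 ± 0.23 and 5.44 ± 0.20. The elongation factor relative Tcea3 was at least 24.4-fold higher, the brain-type aldolase Aldoc at least 24.6-fold, the collagen VIII chain Col8a2 at least 27.1-fold and the extracellular olfactomedin-like protein Olfml2a at least 15.7-fold, each from background. Zc3h6 and the cytochrome P450 Cyp4f17 were also at background at 6 h and rose at least 28.8-fold and 13.5-fold, and Them7 and Tmem176b, with 1 array above the limit at 6 h, had log2 changes of 5.92 and 5.14. The 12 were chosen among called genes whose groups do not overlap.

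Nppb, the natriuretic peptide BNP that stretched heart cells and some other stressed cells make, fell most. Its level was 3.22, 3.30 and 2.87 at 24 h, against 10.05, 10.36 and 10.12 at 6 h. All 24 h arrays were at background and the groups lay far apart, which makes it at least 72.3-fold lower (adjusted p = 1.19e-13). Etv5, an ETS factor that ERK signalling induces, was at background at 24 h with 2.64, 2.83 and 2.57, against 7.85, 7.34 and 7.85 at 6 h, at least 12.8-fold lower. Plcd4, a phospholipase C, was at least 14.3-fold lower, the cardiac myosin light chain kinase Mylk3 at least 10.3-fold, the protease inhibitor Serpinb2 at least 5.34-fold and Il1rl1, the receptor of interleukin 33, at least 5.59-fold. Muscle actins stood among the 12 lowest changes, with Actg2 at 5.24 ± 0.25 against 9.15 ± 0.26 and Acta1 at 5.52 ± 0.32 against 9.33 ± 0.03. The L-plastin gene Lcp1 was uneven at 24 h, with 3.0, 4.53 and 2.99 against 8.13, 8.0 and 8.39 at 6 h. Even its brightest 24 h array lay well under the dimmest at 6 h. Bcat1, the cytosolic branched-chain aminotransferase, and the vesicular glutamate transporter Slc17a6 had log2 changes of −4.18 and −3.64, and Fam167a, at background at 24 h, was at least 8.21-fold lower. Over all genes, 103 came up from background at 6 h among those called higher and 44 went down to background among those called lower.

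**Figure D1:**
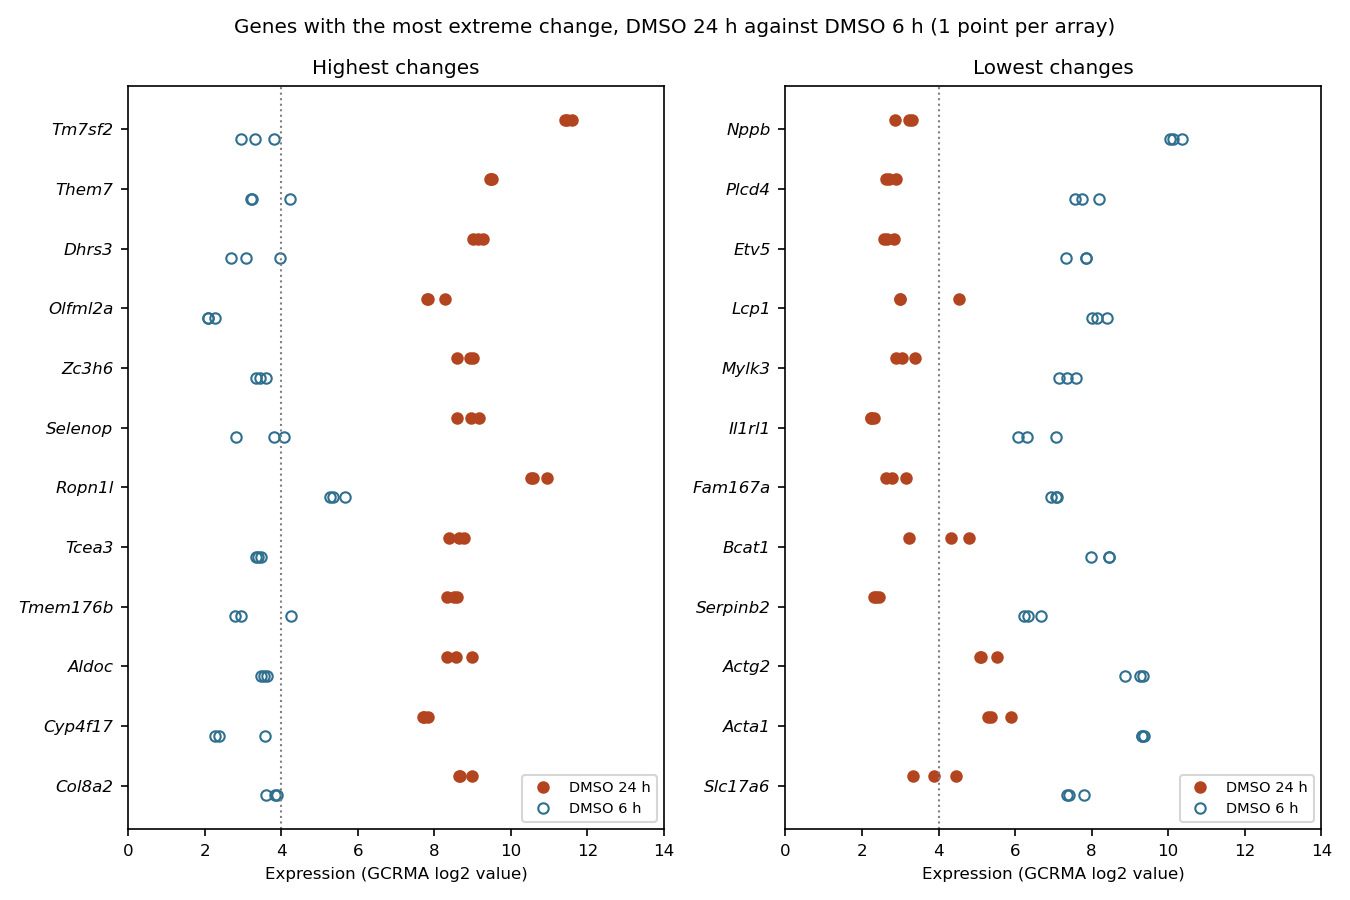
Log2 level (x axis) in each DMSO array of the 12 genes with the highest changes (left) and the 12 with the lowest (right), filled circles for 24 h and open circles for 6 h, with the background limit of log2 4 as a dotted line. The genes were chosen without overlap between the times, and most of the genes shown lie at background at one of them.

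Most of the cholesterol synthesis enzymes tested rose. Of the late sterol enzymes 8 of 8 tested were called higher, with a median of 2.17, and of the early enzymes 9 of 10, with a median of 1.5, against 32.9% and −0.05 over all genes. In the early steps, mevalonate kinase Mvk stood at 9.40, 9.63 and 9.39 at 24 h, against 7.11, 6.94 and 7.05 at 6 h. Its change of 2.44 was much wider than the spread of either group, and the next enzymes of the pathway moved alike, Pmvk 6.62-fold (adjusted p = 2.23e-12) and Mvd 6.32-fold. Lss, which folds the squalene chain into the sterol ring, rose 6.75-fold. In the late steps, Dhcr7, which makes cholesterol from its last precursor, had 11.99, 11.94 and 11.83 at 24 h, against 9.42, 8.97 and 9.45 at 6 h. The isomerase Ebp rose 5.18-fold and Hsd17b7 5.12-fold. The smallest rises were those of Msmo1, by 0.51, and of Idi1 and Sqle, by 0.90 each, Sqle being a rate-setting enzyme of the pathway. Ggps1, which leads off to protein prenylation, fell by 0.51 and was the exception in the early list. These counts held at 9 and 7 when scaled to the poly-A controls.

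Regulators moved less than the enzymes. The SREBP genes themselves differed little: Srebf2 was higher by 0.36, a call lost when scaled to the poly-A controls, and Srebf1 changed by 0.23 without being called. Insig1, which holds SREBP in the endoplasmic reticulum and is itself its target, had 13.19, 13.15 and 13.14 at 24 h, against 12.04, 11.84 and 12.06 at 6 h, a rise of 2.27-fold. Its relative Insig2 rose 2.31-fold and the sterol carrier Stard4 4.65-fold. The cholesterol exporter Abca1, which falls when cells lack sterol in many systems, was also higher, 5.44, 5.04 and 5.48 at 24 h against 3.84, 4.21 and 3.76 at 6 h. In all, 6 of 9 genes of sterol regulation were called higher and 0 lower.

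Most fatty acid synthesis genes rose too. Of 15 tested genes 14 were called higher and 1 lower, with a median of 2.06. Scd, a stearoyl-CoA desaturase that makes oleate, stood at 6.51, 6.73 and 6.62 at 24 h, against background levels of 2.41, 2.45 and 2.41 at 6 h. The arrays of each time lay close together, and the rise was at least 6.15-fold (adjusted p = 1.13e-16). Fads2 and Fads1, the desaturases of polyunsaturated fatty acids, rose 25.2-fold and 12.2-fold. Acss2, which turns acetate into acetyl-CoA, had 12.52, 12.61 and 12.52 at 24 h, against 8.02, 7.94 and 8.13 at 6 h, 22.9-fold higher. The core synthase Fasn rose 2.53-fold, the citrate enzyme Acly by 1.45 and the elongase Elovl6 by 2.38. Gpam, the mitochondrial enzyme that starts triglyceride assembly, was the exception and fell by 2.09. Fatty acid oxidation also tended upward, with 9 of 15 genes called higher, 1 lower and a median of 0.35. Eci1, an isomerase for unsaturated chains, rose 9.56-fold, the dehydrogenases Acadvl 3.03-fold and Acadm 2.48-fold, while Cpt1a, the gate of the pathway, fell by 0.48. Of the oxidation genes only 4 were called higher on the poly-A scale, with or without DMSO 24 h replicate 1.

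Promoters of this group are shown because its members moved together. Windows of 300 bases, 250 before to 50 after the RefSeq start on GRCr8, were searched on both strands. The strict sterol regulatory element is in 69 of 27457 promoters (0.251%) and in none of the windows of the 4 lipid synthesis lists. The CCAAT box, which in sterol promoters binds the SREBP partner NF-Y, is in 37.7% of all promoters, against 6 of 7 early cholesterol, 6 of 8 late sterol and 8 of 12 fatty acid synthesis genes with a window. The windows of Tm7sf2 (chr1:212789492-212789791, minus strand), Acss2 (chr3:164464453-164464752, plus strand) and Fads1 (chr1:216252442-216252741, plus strand) are given 5′ to 3′ along the gene, with the box in capitals, as CCAAT or, on the other strand, ATTGG.
Tm7sf2: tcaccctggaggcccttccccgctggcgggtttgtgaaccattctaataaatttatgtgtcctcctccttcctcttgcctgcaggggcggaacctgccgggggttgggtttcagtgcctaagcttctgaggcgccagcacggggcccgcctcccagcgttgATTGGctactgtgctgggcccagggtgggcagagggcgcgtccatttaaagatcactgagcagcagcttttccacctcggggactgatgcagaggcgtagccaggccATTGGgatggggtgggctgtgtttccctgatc
Acss2: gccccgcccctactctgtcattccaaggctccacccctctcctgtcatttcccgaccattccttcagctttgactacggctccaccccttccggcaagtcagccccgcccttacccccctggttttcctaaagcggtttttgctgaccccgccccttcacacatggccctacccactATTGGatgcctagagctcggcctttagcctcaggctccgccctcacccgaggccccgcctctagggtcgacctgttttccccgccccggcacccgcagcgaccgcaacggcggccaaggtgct
Fads1: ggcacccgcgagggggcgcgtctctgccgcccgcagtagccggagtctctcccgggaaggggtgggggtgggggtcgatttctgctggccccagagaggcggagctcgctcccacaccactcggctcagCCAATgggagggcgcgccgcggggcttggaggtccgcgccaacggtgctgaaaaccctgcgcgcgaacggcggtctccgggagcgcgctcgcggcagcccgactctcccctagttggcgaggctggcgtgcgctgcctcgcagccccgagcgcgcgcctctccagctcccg
The boxes begin at −89 and 19 in Tm7sf2, −73 in Acss2 and −121 in Fads1, counted from the start. A match describes the letters and shows no bound factor.

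Genes of DNA replication fell almost throughout. Of 33 tested, 30 were called lower and 0 higher, with a median of −1.5, against 40.0% lower and −0.05 over all genes. Orc1, which marks replication origins, had 5.00, 5.72 and 5.37 at 24 h, against 8.04, 8.52 and 7.80 at 6 h. The groups were separated by over 2 log2 units, and the fall was 6.76-fold (adjusted p = 1.34e-07). The histone chaperones Chaf1a and Chaf1b fell 4.93-fold and 5.17-fold, and Orc6 3.92-fold. Mcm2, a subunit of the replicative helicase, had 9.83, 10.28 and 10.01 at 24 h, against 11.41, 11.33 and 11.50 at 6 h, and the subunits Mcm3, Mcm4, Mcm5, Mcm6 and Mcm7 fell by 1.60, 1.68, 1.77, 1.73 and 1.86. Cdt1, Tk1 and E2f1 were not called, with changes of −0.03, −0.14 and −0.36. Scaled to the poly-A controls, 26 of the 33 genes were lower, and 29 without DMSO 24 h replicate 1.

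Mitosis genes were lower too, but by less. Of 32 tested, 29 were called lower and 0 higher, with a median of −0.85. Mki67, the proliferation antigen, had 11.48, 11.87 and 11.66 at 24 h, against 12.83, 13.12 and 12.80 at 6 h, and fell 2.37-fold. The kinases Plk1 and Aurka fell 2.91-fold and 2.84-fold, Cdca8 of the chromosome passenger complex 3.20-fold, the mitotic motor Cenpe 2.50-fold, Ccnb1 2.30-fold and Top2a 1.73-fold. Nusap1, Cenpf and Cenpa were not called, at 0.16, −0.13 and −0.27. Levels remained high at 24 h, with Mki67 at 11.67 ± 0.20 and Ccnb1 at 11.21 ± 0.20. On the poly-A scale 13 of the 32 were lower, Top2a not among them, and 29 without DMSO 24 h replicate 1.

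The G1 regulators went both ways, as did genes in general. Rbl1, the pocket protein p107, fell 2.49-fold, and its relative Rbl2, p130, the pocket protein of resting cells, rose 1.72-fold. The inhibitors Cdkn2d and Cdkn1b rose 1.89-fold and 1.29-fold, while the inhibitor Cdkn1a, p21, was lower, 11.63, 11.69 and 11.56 at 24 h against 12.21, 12.01 and 12.18 at 6 h. Its groups did not overlap, yet its other probe set gave 0.13, and the mean over probe sets was not called. Ccnd1, cyclin D1, rose 1.57-fold. Of the 11 genes 5 were called higher and 4 lower, against 32.9% and 40.0% over all genes, or 3 and 1 on the poly-A scale. Myc, a transcription factor that drives cell cycle and ribosome genes, had 8.53, 9.27 and 8.87 at 24 h, against 9.36, 9.18 and 9.75 at 6 h. The groups overlap, and its call (−0.54, adjusted p = 0.023) was lost when only the DMSO arrays at these times were fitted and under the poly-A scale.

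The E2F site, which E2F factors and pocket proteins read in S phase genes, was searched as TTTGGCGC or TTTCGCGC. It is in 0.841% of all promoters and 1.68% of those of the genes tested, against 12 of 29 replication genes and 1 of 27 mitosis genes with a window, whereas the CCAAT box is in 21 of those 27. The windows of Mcm5 (chr19:13488563-13488862, plus strand) and Mcm7 (chr12:22163129-22163428, minus strand) are shown as helicase subunits that fell together, with the site in capitals. In Mcm5 a match on each strand overlaps the other, beginning at −213 and −209, and in Mcm7 the match begins at −52.
Mcm5: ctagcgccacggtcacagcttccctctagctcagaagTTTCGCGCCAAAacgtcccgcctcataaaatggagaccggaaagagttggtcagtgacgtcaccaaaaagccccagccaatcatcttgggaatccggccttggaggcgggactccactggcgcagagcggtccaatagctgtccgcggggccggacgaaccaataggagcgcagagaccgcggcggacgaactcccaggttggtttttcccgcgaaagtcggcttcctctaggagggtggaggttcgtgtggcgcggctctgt
Mcm7: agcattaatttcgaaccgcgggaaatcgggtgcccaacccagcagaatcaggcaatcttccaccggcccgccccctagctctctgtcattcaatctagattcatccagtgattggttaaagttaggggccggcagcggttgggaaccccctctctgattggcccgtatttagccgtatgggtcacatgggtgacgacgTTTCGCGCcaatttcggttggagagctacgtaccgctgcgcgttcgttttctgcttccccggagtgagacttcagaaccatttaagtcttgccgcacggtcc

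The machinery that makes ribosomes fell without exception among the 31 genes tested, all 31 called lower, with a median of −1.37. Polr1b, a core subunit of RNA polymerase I, had 5.49, 5.72 and 5.23 at 24 h, against 8.56, 8.47 and 8.89 at 6 h. Every 24 h array lay over 2 log2 units below every 6 h array, a fall of 8.93-fold (adjusted p = 7.16e-11). The largest subunit, Polr1a, fell 4.08-fold, the processing factor Rrp9 4.83-fold and Wdr12, of the large subunit pathway, 4.64-fold. The nucleolar proteins Fbl, Nop56 and Ncl fell by 1.72, 1.61 and 0.82, and the smallest change was that of the polymerase I factor Ubtf, by 0.50. Scaled to the poly-A controls, 23 of the 31 were lower, and 31 without DMSO 24 h replicate 1. Ribosomal proteins themselves barely moved as a list, though the lowest change of a member was −1.19. Of 42 listed, 20 had no probe set of that symbol alone. Of 21 tested, 8 were called lower and 0 higher, but the median was −0.10, that of all genes being −0.05, and with arrays centred on their medians 2 were lower and 2 higher. The 8 became 5 without any of 4 of the 6 arrays, and 1 on the poly-A scale. Rps24, for example, stood at 15.39 ± 0.02 at 24 h and 15.58 ± 0.02 at 6 h.

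Most genes of tRNA charging and of the amino acid response were lower. Of 19 aminoacyl-tRNA synthetases, which load tRNAs for translation, 17 were called lower, with a median of −1.18. Hars1 and Qars1 were higher by 0.40 and 0.22, neither called so on the poly-A scale. Yars1 had 10.72, 10.77 and 10.79 at 24 h, against 12.47, 12.35 and 12.49 at 6 h, 3.19-fold lower, and Vars1, Gars1 and Tars1 were 3.21-fold, 2.77-fold and 2.65-fold lower. Of 22 genes of the ATF4 and amino acid response, 15 were called lower and 4 higher, with a median of −0.90. Slc7a5, the large neutral amino acid transporter, had 7.45, 7.67 and 7.48 at 24 h, against 10.31, 10.28 and 10.36 at 6 h, 6.88-fold lower (adjusted p = 9.63e-12). The one-carbon enzymes Mthfd2 and Shmt2 fell 5.01-fold and 3.73-fold, and the serine and asparagine enzymes Phgdh, Psat1 and Asns by 1.85, 1.65 and 1.68. Ddit4, an inhibitor of the growth kinase mTORC1, went the other way, 10.83 to 11.11 in the 3 arrays at 24 h against 8.20, 8.60 and 8.33 at 6 h, 6.09-fold higher. Atf4 itself was lower by 0.34.

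The E-box CACGTG, the form that MYC reads, is in 6.65% of all promoters and 10.2% of those of the genes tested, against 10 of 27 ribosome biogenesis and 5 of 17 synthetase genes with a window. Gnl3, the nucleolar GTPase nucleostemin, fell by 1.62, and its window (chr16:6219733-6220032, minus strand) holds the box, in capitals, beginning at −25.
Gnl3: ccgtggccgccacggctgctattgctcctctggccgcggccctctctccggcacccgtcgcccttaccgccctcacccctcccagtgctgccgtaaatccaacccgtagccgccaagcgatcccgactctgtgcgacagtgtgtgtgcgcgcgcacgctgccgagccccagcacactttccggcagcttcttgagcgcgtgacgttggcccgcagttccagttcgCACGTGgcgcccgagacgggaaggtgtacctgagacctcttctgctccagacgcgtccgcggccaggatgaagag

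Early response genes did not move as a group: of 27 tested, 8 were called higher and 7 lower, with a median of 0.02 that was −0.06 after quantile normalization. The 7 became 11 without DMSO 24 h replicate 2 and 3 on the poly-A scale. Fos, of the AP-1 factor, stood at 11.30, 11.34 and 11.29 at 24 h, against 8.63, 8.65 and 8.80 at 6 h. The replicates were tight and the rise was 6.14-fold (adjusted p = 1.01e-11). Junb rose 3.29-fold and Egr1 1.80-fold, while Jun, Atf3 and Dusp1 were not called, at −0.11, −0.09 and 0.20. Fosl1 went to background, 2.07, 2.08 and 2.11 at 24 h against 3.90, 2.96 and 5.30 at 6 h, where 1 of 3 arrays was above the limit. Nr4a3 was at least 1.63-fold lower. Among the feedback genes of the ERK pathway, which is read out by the genes it induces, 3 were called higher and 4 lower of 11. The phosphatase Dusp6 had 8.13, 8.84 and 8.08 at 24 h, against 10.02, 9.54 and 10.75 at 6 h, a fall of 3.36-fold without overlap. Etv4 was called lower but at background at both times, so no fold is given, and the inhibitor Spry2 was higher by 0.46. Under the poly-A scale no feedback gene was called higher and 2 were called lower.

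Several actin cytoskeleton genes were lower. Of 17 tested actin and SRF genes, 10 were called lower and 3 higher, with a median of −0.26, against 40.0% lower over all genes. Myl9, the regulatory light chain of myosin, was at background at 24 h with 2.31, 2.34 and 2.76, against 5.89, 6.43 and 5.90 at 6 h, at least 4.20-fold lower. Tagln, transgelin, fell 2.48-fold and Acta2, smooth muscle actin, 2.51-fold, with 10.52, 10.76 and 10.96 at 24 h against 12.23, 11.84 and 12.16 at 6 h. Their groups did not overlap. Filip1l rose 6.07-fold and was the exception in size. Scaled to the poly-A controls 4 were lower, and 8 without DMSO 24 h replicate 1. The actin 3′ to 5′ difference given above moved with time in the same arrays, and its part in the values of actin genes was not tested.

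The CArG box, the letters that serum response factor reads, is in 1.64% of all promoters, against 3 of 15 actin list genes and 5 of 18 early response genes with a window. Windows of Acta1 (chr19:68784145-68784444, minus strand), which fell, and Egr1 (chr18:26736828-26737127, plus strand), which rose, are set side by side because genes with the same box moved in opposite directions, the box being in capitals and beginning at −94 in Acta1 and at −105 and −83 in Egr1.
Acta1: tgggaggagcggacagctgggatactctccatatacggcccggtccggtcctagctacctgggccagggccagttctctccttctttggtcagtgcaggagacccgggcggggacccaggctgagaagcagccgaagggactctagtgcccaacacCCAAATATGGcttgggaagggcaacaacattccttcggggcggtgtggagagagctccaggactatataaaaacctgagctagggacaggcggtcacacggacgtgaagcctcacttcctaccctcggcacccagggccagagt
Egr1: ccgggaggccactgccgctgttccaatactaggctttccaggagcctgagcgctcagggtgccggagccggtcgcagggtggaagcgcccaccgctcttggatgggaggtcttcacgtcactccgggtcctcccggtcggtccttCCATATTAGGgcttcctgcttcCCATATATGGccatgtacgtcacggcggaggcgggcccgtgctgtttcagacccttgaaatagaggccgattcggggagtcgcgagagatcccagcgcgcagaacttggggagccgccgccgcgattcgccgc
The windows of Nppb, Acta2, Actg2, Mylk3 and Junb held no match, which says only that the letters are not in these 300 bases.

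Targets of TGF-beta and BMP signalling rose, with 12 of 13 genes called higher, 1 lower and a median of 0.89. The BMP-induced inhibitors of differentiation Id1, Id2 and Id3 rose 2.38-fold, 2.19-fold and 2.86-fold. Id3, for instance, had 14.06, 13.92 and 13.94 at 24 h, against 12.49, 12.26 and 12.61 at 6 h. The decoy receptor Bambi rose 5.61-fold, with 9.71 ± 0.05 at 24 h against 7.22 ± 0.32 at 6 h, and the inhibitory Smad6 and Smad7 by 0.93 and 0.89. Ltbp2, a latent TGF-beta binding protein by name, fell by 1.01. The ligands Bmp2 and Bmp4 rose 4.16-fold and 2.10-fold, Bmp2 with 6.44, 7.07 and 5.97 at 24 h against 4.70, 3.69 and 4.93 at 6 h. In the list of growth factors and receptors, 8 of 13 were called higher and 1 lower (2 without DMSO 6 h replicate 1), among the higher ones the EGF receptor Egfr, 2.31-fold, and the ErbB ligand Nrg1, 2.18-fold. On the poly-A scale without DMSO 24 h replicate 1, 5 of the 13 were called higher.

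Notch genes moved to both sides. The target Hes1 had 10.63, 10.48 and 10.33 at 24 h, against 7.78, 7.81 and 7.80 at 6 h, a rise of 6.43-fold (adjusted p = 1.21e-11). Notch1 rose at least 3.46-fold from background, and Hey2, another target, went to background and was at least 2.40-fold lower. Of 8 Wnt and Notch genes 4 were called higher and 1 lower. The YAP and TEAD targets, which report cell density and tension, were uneven: 7 of 15 were called higher and 3 lower, with a median of 0.15 that was 0.33 on the poly-A scale, where 2 were higher, and −0.08 on it without DMSO 24 h replicate 1, and 11 were higher with arrays centred on their medians. The main targets Ccn1 and Ccn2 hardly moved, at 13.38 ± 0.16 against 13.30 ± 0.14 and at 15.35 ± 0.04 against 15.19 ± 0.05, and the small rise of Ccn2 turned to −0.08 on the poly-A scale without DMSO 24 h replicate 1. Ankrd1 fell 3.27-fold, with 5.50, 6.62 and 4.98 at 24 h against 7.16, 7.10 and 7.97 at 6 h.

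Genes of the FoxO factors and of quiescence rose, 12 of 14 called higher and 1 lower, with a median of 0.86. Txnip, which restrains glucose uptake, had 11.59, 11.26 and 11.38 at 24 h, against 9.66, 9.73 and 9.68 at 6 h, 3.30-fold higher. Pik3ip1, an inhibitor of PI3 kinase, rose 3.99-fold, Gas6 2.49-fold and Sesn1 2.01-fold, and Foxo1 and Foxo3 rose by 0.84 and 0.44. On the poly-A scale 9 were higher, and 7 without DMSO 24 h replicate 1. Among clock genes the output factor Dbp stood out, 7.90, 7.73 and 7.39 at 24 h against 4.48, 3.53 and 4.44 at 6 h, 11.5-fold higher. Per3 rose 2.24-fold, and Per2 was called higher close to background, with 4.36, 4.72 and 4.52 at 24 h against 3.53, 3.0 and 4.11 at 6 h. In contrast, Cry1 and Clock fell 3.64-fold and 2.65-fold, and Bmal1, Nr1d1 and Per1 were not called. Of the 14, 5 were higher (2 on the poly-A scale without DMSO 24 h replicate 1) and 3 lower (5 without DMSO 6 h replicate 2). The shares over all genes were 32.9% higher and 40.0% lower. Glucocorticoid-responsive genes went both ways, with Tsc22d3 5.66-fold higher and Fkbp5 2.99-fold lower.

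The matrix list was mixed, with 12 of 24 genes called higher, 7 lower and a median of 0.33. The laminin chain Lama5 rose 2.64-fold and Lama3 fell 2.35-fold. Col16a1 rose 2.42-fold, and Fn1 fell by 0.82. Col1a2 was spread out, with 5.97, 5.41 and 4.61 at 24 h against 3.13, 3.40 and 4.37 at 6 h. Its groups stayed apart by little, and its other probe set changed by 0.12. On the poly-A scale without DMSO 24 h replicate 1, 5 of the 24 were called higher. Of 10 proteases and inhibitors, 6 were called higher and 1 lower (2 lower without DMSO 24 h replicate 1). Timp3, an inhibitor of matrix proteases, had 10.29, 9.83 and 10.03 at 24 h, against 6.95, 6.43 and 7.24 at 6 h, 9.04-fold higher, while Plat rose 2.43-fold and Mmp14 1.91-fold.

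Of the junction genes, 2 of the tight junction were higher by over 3-fold. Cingulin, Cgn, had 7.30, 7.21 and 6.17 at 24 h, against background levels of 3.69, 3.72 and 3.69 at 6 h, at least 7.41-fold higher. F11r, the junction adhesion molecule JAM-A, rose 3.51-fold, whereas Krt8 fell 1.61-fold and was not called on the poly-A scale. Of 10 tested genes 5 were higher and 2 lower (1 lower without replicate 1 or 2 at 24 h or replicate 1 at 6 h), 13 more being below the filter, and on the poly-A scale 3 were higher. The few tubule genes that could be tested split, with the bicarbonate cotransporter Slc4a4 3.22-fold and the creatine enzyme Gatm 1.65-fold higher, and the brush border enzyme Ggt1 3.85-fold and the cystine transporter subunit Slc7a9 3.32-fold lower. Ggt1 had 6.83, 6.74 and 6.54 at 24 h, against 8.64, 8.63 and 8.67 at 6 h. Of injury markers, Spp1 and Cst3 rose 1.54-fold and 1.55-fold (neither call kept on the poly-A scale without DMSO 24 h replicate 1) and Cd44 fell 2.27-fold, while Havcr1 and Lcn2 were below the filter.

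NRF2 targets, genes of the antioxidant and detoxification response, moved to both sides, as did genes in general. Slc7a11, the cystine importer, had 5.17, 4.88 and 4.50 at 24 h, against 8.34, 8.30 and 8.40 at 6 h, 11.3-fold lower (adjusted p = 1.75e-11). Hmox1, heme oxygenase 1, fell 7.41-fold, and the thiol-repair enzymes Srxn1 and Txnrd1 fell 4.09-fold and by 1.97 on the log2 scale. Ephx1, the epoxide hydrolase, rose 14.2-fold, with 9.58, 9.28 and 9.34 at 24 h against 5.66, 5.35 and 5.72 at 6 h, and the transferases Gstm1 and Gsta4 and catalase Cat rose by 1.84, 1.63 and 1.72. Of 22 genes 8 were higher and 11 lower (5 lower on the poly-A scale), against 32.9% and 40.0% over all genes. In the xenobiotic list 4 of 7 were called higher and 0 lower (2 higher on the poly-A scale), with the AhR target Tiparp 2.69-fold and the reductase Por 2.22-fold higher, and Cyp2s1 and Gstt1 at or near background. The zinc exporter Slc30a1, which zinc induces, went to background and was at least 3.34-fold lower, and ceruloplasmin, Cp, rose 3.16-fold.

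Most heat shock genes were lower. Of 18 heat shock genes 15 were called lower and 0 higher, with a median of −0.73. Chordc1 and Stip1, partners of HSP90, fell 2.29-fold and 2.24-fold, the factor Hsf1 2.12-fold, with 8.23, 8.30 and 7.88 at 24 h against 9.27, 9.05 and 9.35 at 6 h, and the mitochondrial chaperonin Hspd1 2.04-fold. Hspa1a was at background at both times. On the poly-A scale 4 of the 18 were lower, and 13 without DMSO 24 h replicate 1. In the unfolded protein response list 11 of 20 were called higher and 6 lower, with a median of 0.31. The disulfide isomerases Pdia3 and Pdia4 rose 1.99-fold and 1.81-fold, calreticulin Calr 1.89-fold and the factor Xbp1 1.73-fold, with 11.19, 11.14 and 11.07 at 24 h against 10.31, 10.26 and 10.44 at 6 h. Here 4 were higher on the poly-A scale, with or without that array.

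Proteasome genes were lower by small amounts, with 25 of 31 called lower and a median of −0.38. Psma3 was higher by 0.29, a call lost without any of 4 of the 6 arrays. Psmc4, an ATPase of the cap, had 11.69, 11.74 and 11.60 at 24 h, against 12.49, 12.41 and 12.52 at 6 h, 1.74-fold lower, and Psmd13 was 1.71-fold lower. This count was not kept on the poly-A scale: no member was called lower, and 16 were without DMSO 24 h replicate 1. Lysosomal genes went the other way, 15 of 24 higher and 4 lower, with a median of 0.40, the cathepsin Ctsd 2.06-fold, the hydrolases Glb1 and Gla 2.22-fold and 2.16-fold and the autophagy protein Wipi1 2.78-fold higher. The 15 became 8 on the poly-A scale without that array. The second probe set of Wipi1 hardly changed.

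Interferon-stimulated genes rose, 12 of 17 called higher and 1 lower, with a median of 1.22, or 1.04 with genes at background set to their bound. Gbp2, a guanylate-binding protein, had 8.15, 7.77 and 8.01 at 24 h, against 4.59, 4.60 and 4.51 at 6 h, 10.6-fold higher (adjusted p = 2.4e-09). Stat2, which carries the signal of type I interferon, rose 4.84-fold, the immunoproteasome subunit Psmb9 3.91-fold and Bst2 3.61-fold, and 11 were higher on the poly-A scale. Oas1a, Rsad2 and Ifit1, Ifit2 and Ifit3 were below the filter. Of 13 inflammatory genes 2 were higher and 4 lower. The chemokine Cxcl1 was uneven at 6 h, with 8.38, 8.95 and 8.52 at 24 h against 8.74, 11.24 and 9.21 at 6 h, so that the groups overlap. Its call was lost without DMSO 6 h replicate 2 (−0.36) and without DMSO 24 h replicate 1 or 3. Other settings that lost it include quantile normalization, median centring and a fit of only the DMSO arrays at these times.

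Energy genes showed single large changes within flat lists. Of 25 glycolysis and hypoxia genes 10 were called higher and 7 lower, with a median of 0.03. On the poly-A scale 1 was lower, and 5 were higher without DMSO 24 h replicate 1. Besides Aldoc, the regulator Pfkfb4 rose 14.1-fold, with 8.83, 9.07 and 8.95 at 24 h against 4.91, 4.91 and 5.60 at 6 h, and Pfkm 2.70-fold. Gapdh was level, 15.16 ± 0.04 and 15.13 ± 0.09. Of 41 oxidative phosphorylation genes 9 were higher and 15 lower, with a median of −0.05, the electron carrier Cyc1 2.02-fold lower, and on the poly-A scale 0 were higher and 1 lower. The p53 targets Aen and Phlda3 fell 6.21-fold and 2.05-fold and Bbc3 rose 1.80-fold. Of 10 tested 4 were higher and 3 lower, near the 32.9% and 40.0% over all genes. The 4 became 2 without replicate 2 or replicate 3 at 24 h, and 2 on the poly-A scale.

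**Figure D2:**
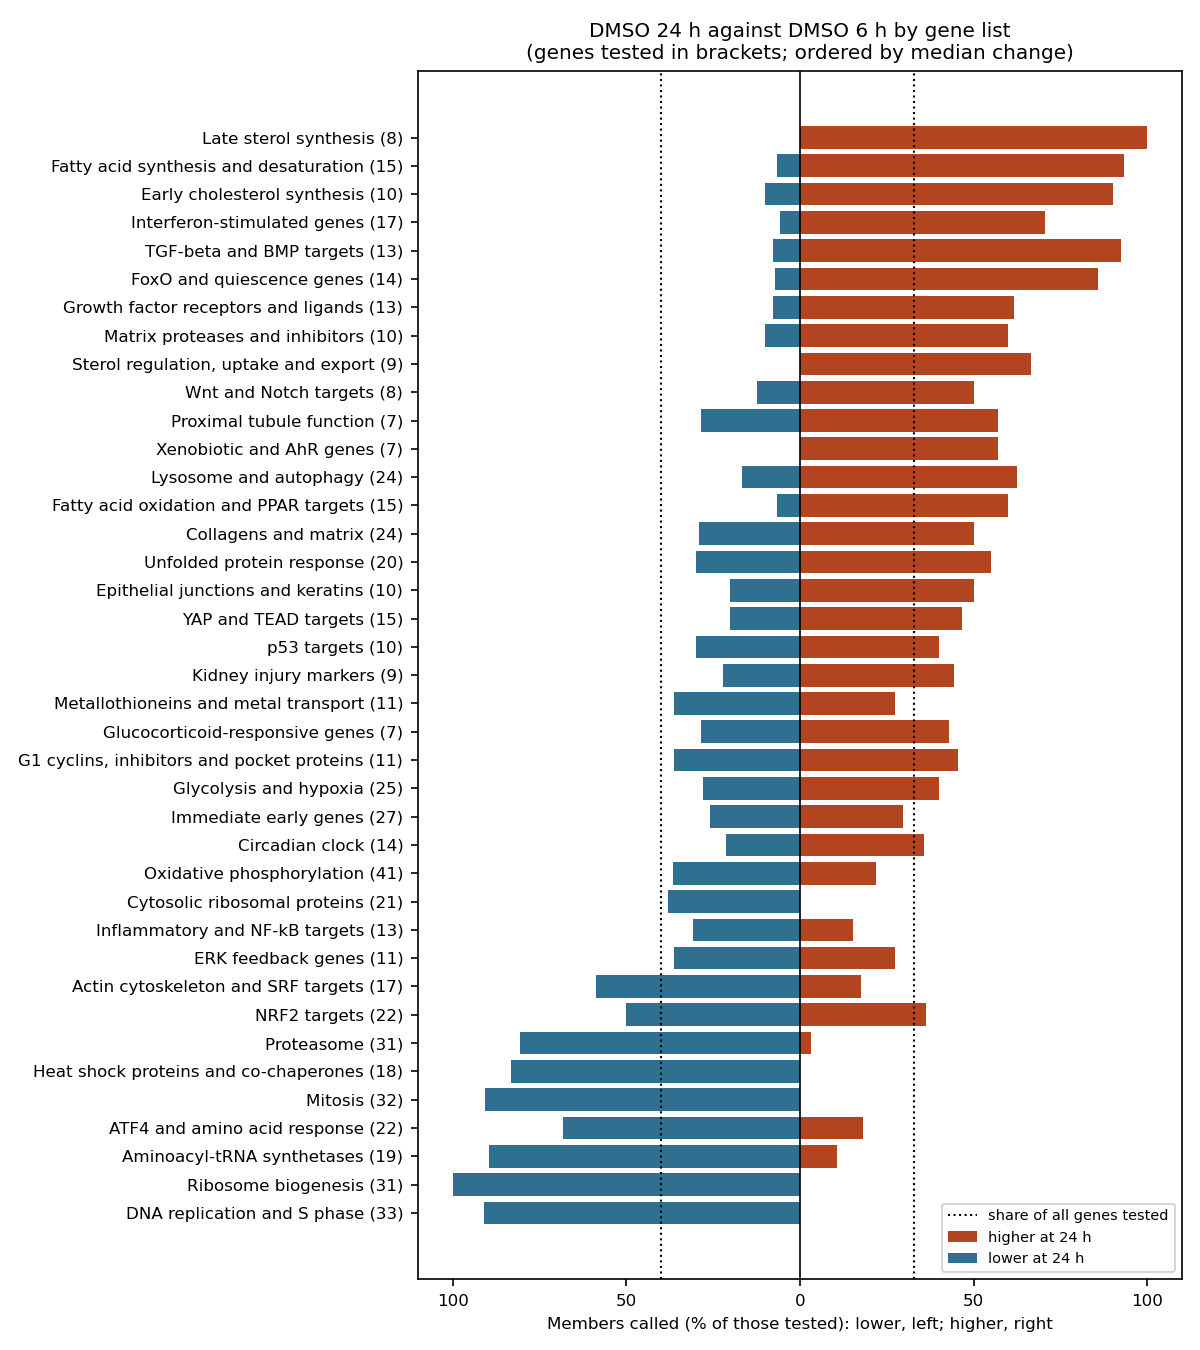
Share of the tested members of each list called higher at 24 h (bars to the right) and lower (bars to the left) in DMSO, ordered by the median change, with the shares over all 9149 genes as dotted lines. Sterol and fatty acid synthesis stand at the top and DNA replication, ribosome biogenesis and tRNA synthetases at the bottom, far past both lines.

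Chlorothalonil cultures, with arrays of their own, give the same interval a second time in other conditions. From 6 to 24 h 5448 genes were called there (59.5%), 3166 higher (34.6%) and 2282 lower (24.9%). Higher in both were 1628 genes, 54.1% of the DMSO list and 51.4% of the chlorothalonil list, and lower in both 1491, 40.7% and 65.3%. Opposite directions were called for 370 genes higher in DMSO and lower in chlorothalonil and for 696 lower in DMSO and higher in chlorothalonil. The difference of the changes, DMSO minus chlorothalonil, was itself called for 5761 genes (63.0%), 2138 higher (23.4%) and 3623 lower (39.6%), with a median of −0.16. Scaled to the poly-A controls, 1493 genes were called in chlorothalonil, 503 higher and 990 lower, and for the difference 1200 higher and 246 lower, with a median of 0.31. That tilt rested on DMSO 24 h replicate 1, without which the poly-A scale gave 1152 higher and 1438 lower differences with a median of −0.12.

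The lipid lists rose further in DMSO than in chlorothalonil. The median change of late sterol synthesis was 2.17 in DMSO and 0.34 in chlorothalonil, of early cholesterol synthesis 1.5 and 0.45 and of fatty acid synthesis 2.06 and 0.50. The difference was called higher for 7 of 8, 9 of 10 and 13 of 15 genes, and on the poly-A scale for 7, 8 and 11, with or without DMSO 24 h replicate 1. Scd, at least 6.15-fold higher in DMSO, changed by 0.02 in chlorothalonil. Fos changed by 2.62 in DMSO and −0.67 in chlorothalonil, Bambi by 2.49 and −1.21, and Timp3 by 3.18 and −1.09. TGF-beta and BMP targets had medians of 0.89 and −0.05, with the difference called higher for 10 of 13 and on the poly-A scale for 4. Division and ribosome genes moved the same way in both: replication −1.5 in DMSO and −0.89 in chlorothalonil, mitosis −0.85 and −0.68, ribosome biogenesis −1.37 and −0.59. Their differences were called lower for 22 of 33, 12 of 32 and 25 of 31 genes, against 39.6% over all genes. They were called higher for 3, 4 and 0. The mitosis count thus lies near the share over all genes. With arrays centred on their medians, 9 mitosis differences were higher and 9 lower. On the poly-A scale 0, 0 and 2 were called lower in the 3 lists, and 8, 1 and 16 on it without DMSO 24 h replicate 1. The proteasome list was −0.38 in DMSO and 0.27 in chlorothalonil, 28 of 31 differences being lower, and 0 on the poly-A scale, or 7 without that array. Interferon-stimulated genes had medians of 1.22 and 1.20. Their difference was called higher for 5 and lower for 7 of the 17, near the 23.4% and 39.6% over all genes.

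**Figure D3:**
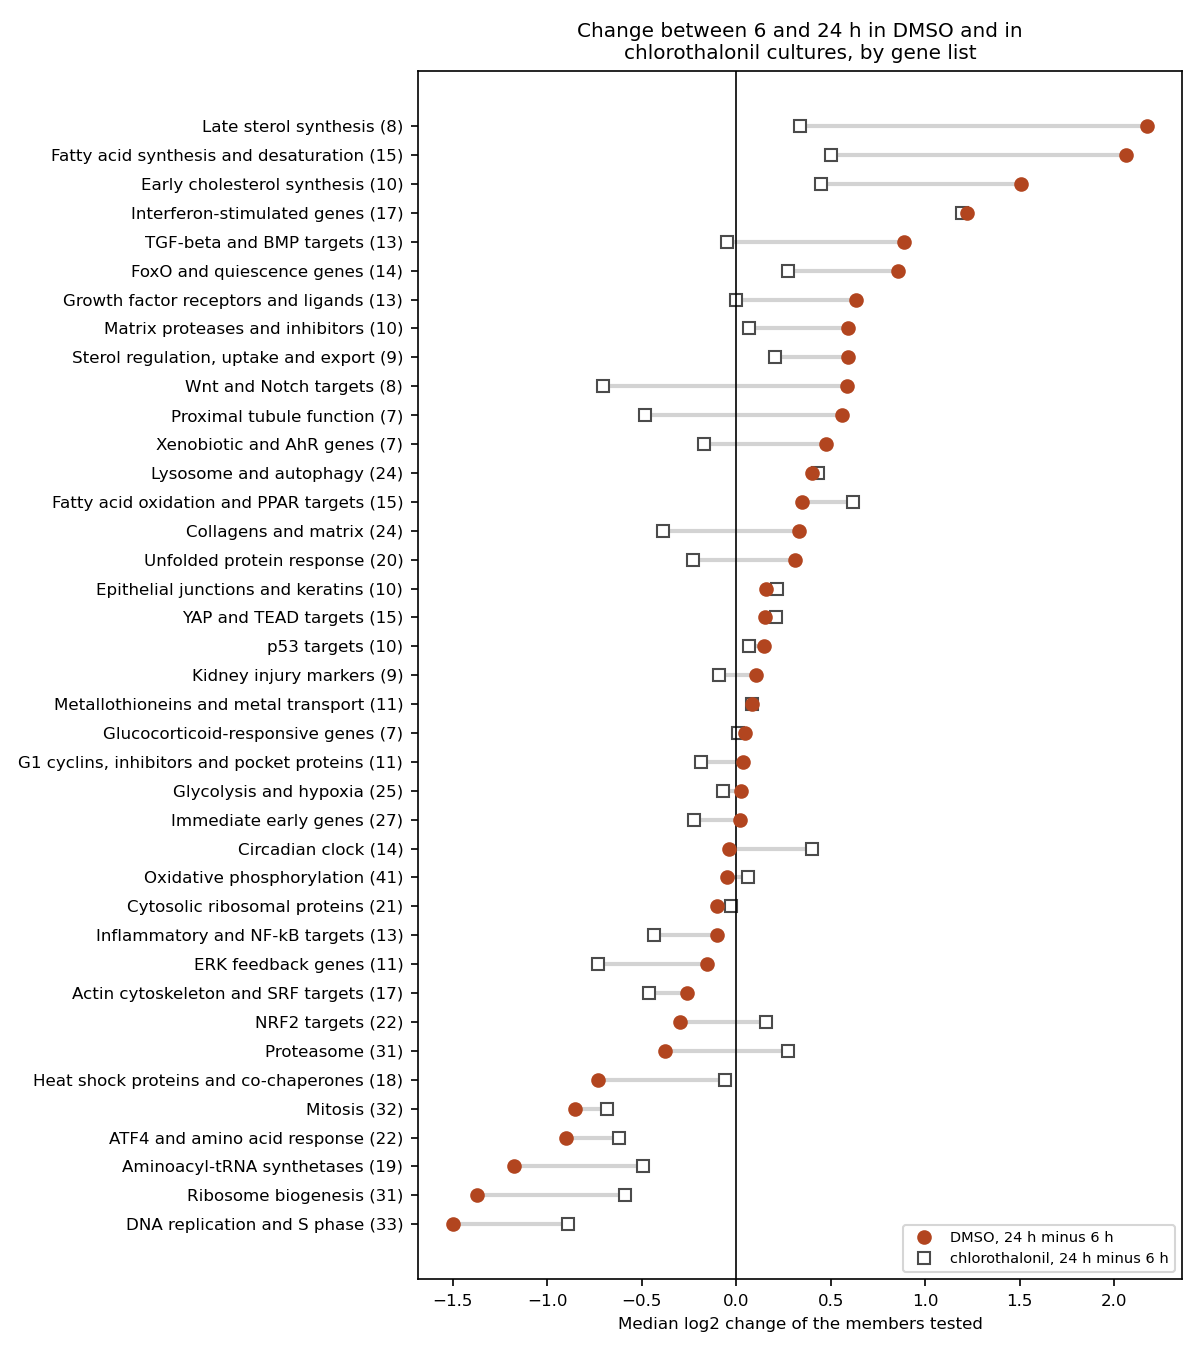
Median log2 change between 6 and 24 h of the tested members of each list (number in brackets), filled circles for DMSO and open squares for chlorothalonil, joined by grey lines, on the deposited scale. Sterol and fatty acid synthesis lie between 1.5 and 2.17 in DMSO and between 0.34 and 0.50 in chlorothalonil, and the interferon list at about 1.2 in both.

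Levels at 6, 24 and 72 h in DMSO show which changes had gone further by 72 h. The comparison of 72 h with 24 h shares the 24 h arrays with the one described here, so values are only set side by side. From 24 to 72 h 5550 genes were called (60.7%), 3324 higher (36.3%) and 2226 lower (24.3%), or 439 higher and 900 lower on the poly-A scale, and 2403 and 666 on it without DMSO 24 h replicate 1. Tm7sf2 stood at 3.36, 11.49 and 7.31, Acss2 at 8.03, 12.55 and 9.21, Scd at 2.42, 6.62 and 2.42 and Fasn at 10.71, 12.04 and 9.78 at 6, 24 and 72 h, so all 4 were brightest at 24 h. Of the sterol lists 9 of 10 early and 8 of 8 late genes were called lower at 72 h than at 24 h, and of fatty acid synthesis 14 of 15. Mcm2 stood at 11.41, 10.04 and 10.16 and Orc1 at 8.12, 5.36 and 4.87, low at both later times. Polr1b, at 8.64, 5.48 and 7.01, was lowest at 24 h. Of 31 ribosome biogenesis genes 13 were called higher and 4 lower at 72 h than at 24 h. The 13 lie near the 36.3% called higher over all genes. Txnip, at 9.69, 11.41 and 13.54, and Col8a2, at 3.77, 8.76 and 11.65, were higher at each later time, and Fos, at 8.69, 11.31 and 11.46, was level after 24 h. Aqp1, the water channel of the proximal tubule, was at background at 6 and 24 h and stood at 7.04 ± 0.16 at 72 h. Most tubule genes tested went the other way, 2 of 7 being called higher and 5 lower at 72 h than at 24 h. Ggt1 stood at 8.65, 6.70 and 3.42 and Gatm at 9.21, 9.94 and 7.37 at 6, 24 and 72 h.

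**Figure D4:**
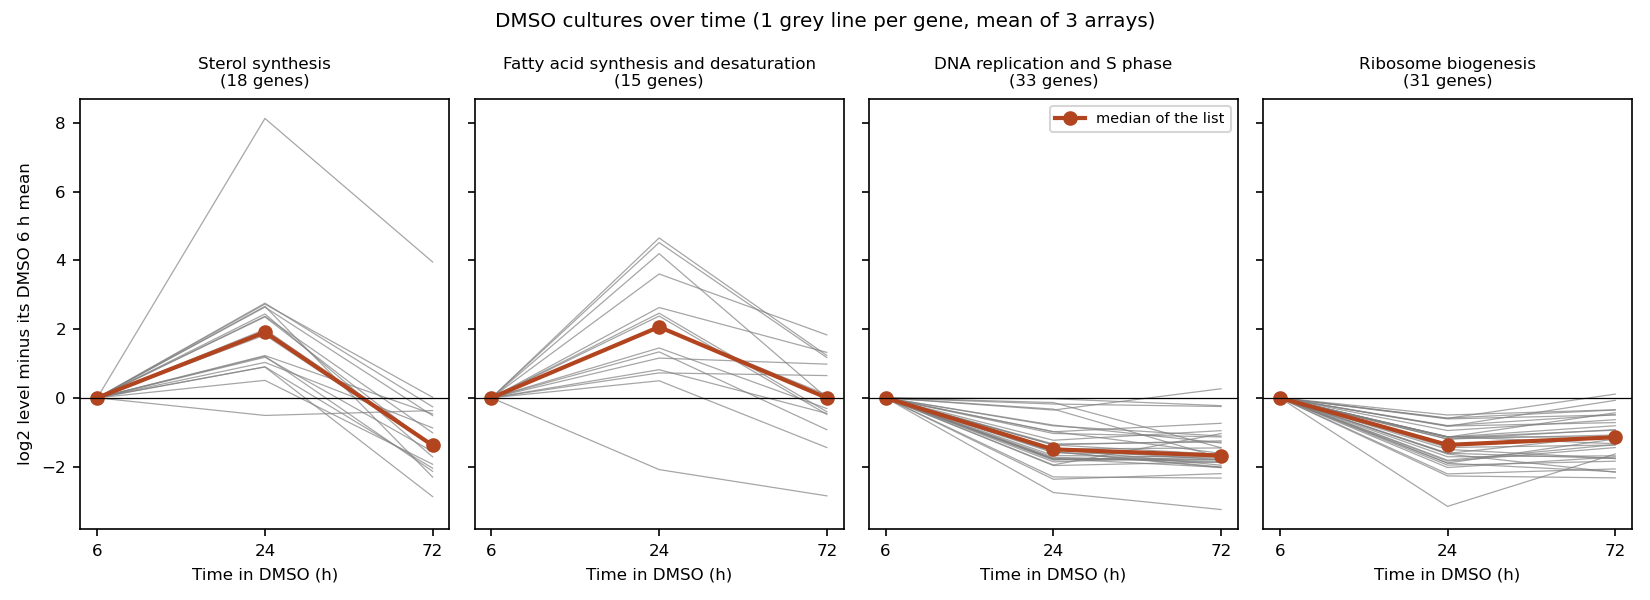
Mean log2 level of each gene in DMSO relative to its 6 h mean (y axis) at 6, 24 and 72 h (x axis), 1 grey line per gene and the median of the list in red, for sterol synthesis, fatty acid synthesis, DNA replication and ribosome biogenesis. The lipid lists peak at 24 h, near 2, while the replication and ribosome lists are below 0 at 24 and at 72 h.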

How the data were processed

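NRK-52E RNA from 6 groups of 3 arrays was measured on Affymetrix rat arrays. Per the labels' protocols, Trizol RNA was copied into cRNA carrying biotin. For 31099 probe sets the authors deposited log2 values, which according to the submitters' processing notes come from GCRMA. Its settings were not given there. Deposited log2 values ran from 0.915 to 16.1. GCRMA presses undetected probes into a narrow low band and, with quantile normalization where it is used, takes out a change common to most genes, so levels are relative within an array. The number of arrays limits the precision.

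Symbols came from the platform annotation (1 symbol for 20832 probe sets, several for 436, none for 9831). Entrez identifiers matched 20764 of them to RefSeq GRCr8, where 0 symbols differed. Probe sets above log2 4 in at least 3 of 18 arrays with 1 symbol were kept (12693), and each gene was given by its brightest one, which left 9149 genes. Of these, 4 passed through the DMSO 24 h arrays alone and 2 through the DMSO 6 h arrays alone, and 462 rest on probe sets that can bind related transcripts. All 18 arrays entered 1 limma 3.58.1 fit (R 4.3.3) of 6 group means, two-sided, with Benjamini-Hochberg adjustment over 9149 genes. Titles gave the groups. Arrays of a group are biological replicates per the labels, which name no separate cultures, so p-values may measure a partly technical spread. Where 3 arrays of a group lay at or below log2 4, a fold is a bound, the other group's mean against log2 4. The script was tested on simulated data.

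The text names the 12 highest and 12 lowest called genes without overlap, up to 4 called members of each of the 44 lists with the largest changes, the 5 highest and 5 lowest differences from chlorothalonil, and a fixed set. Other members named, such as exceptions and members not called, were chosen after their values were seen. The comparison, the members and the lists were chosen with earlier results of these data known. Of the fixed set, Actb has no probe set of that symbol alone, Lrp2 and Krt18 were below the filter, and some members are not reported here. Promoters are those of RefSeq, GRCr8.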

Additional observations from a re-analysis of the deposited data

Results flagged for a closer look

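The change between 6 and 24 h differed between DMSO and chlorothalonil, by limma's test of that difference, for the 10 genes given here, the 5 highest and the 5 lowest differences of DMSO minus chlorothalonil on the log2 scale. All 10 kept direction and call under the alternatives that were run for them.

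Among the positive differences, Col8a2 had 5.87. It stood at 8.76 at 24 h and 3.77 at 6 h in DMSO, and at 3.85 and 4.73 in chlorothalonil. Tmem176b had 5.52, Mgp, an inhibitor of calcification, 5.48, Tm7sf2 4.88 and Ropn1l 4.75. Mgp was higher by 2.38 in DMSO and changed by −3.10 in chlorothalonil, and Tm7sf2 was higher in both, by 8.13 and 3.26.

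Among the negative ones, Sprr1a, a protein of stressed epithelia, had −6.96, the chaperone Hspa1a −6.05 and the macrophage-type elastase Mmp12 −4.97. These 3 were at background at both times in DMSO and were higher at 24 h than at 6 h in chlorothalonil, Hspa1a with 10.32 and 4.25, so the DMSO side gives no measured change. Nppb had −5.99 and Plcd4 −5.11. Nppb stood at 3.13 at 24 h and 10.18 at 6 h in DMSO, and at 10.38 and 11.44 in chlorothalonil, where Plcd4 had 9.26 and 9.25. Differences with a DMSO mean below log2 4 are fitted values and no bounds.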

How the results depend on the processing

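Scaling to the poly-A controls moved the counts most: 2968 genes were called for DMSO 24 h against 6 h (1852 higher, 1116 lower), 1493 for chlorothalonil 24 h against 6 h (503, 990), 1446 for the difference (1200, 246) and 1339 for DMSO 72 h against 24 h (439, 900). Without DMSO 24 h replicate 1, chosen after seeing the data, that scale gave 1367 higher and 3316 lower genes for DMSO 24 h against 6 h, 2590 for the difference (1152 higher, 1438 lower) and 3069 for 72 h against 24 h (2403, 666), and Ccn2 turned to −0.0804. The cause was not tested. Leaving out 1 array at a time gave 6326 to 6574 calls for DMSO 24 h against 6 h (2800 to 3005 higher, 3412 to 3653 lower), 4894 to 5162 for chlorothalonil, 5472 to 5716 for the difference and 4969 to 5274 for 72 h against 24 h. Centring arrays on their medians moved the median of all genes from −0.05 to 0.05, with 3513 higher and 3209 lower. Deviations of same-numbered replicates from their group means correlated at −0.26 to 0.30. Pairs with different numbers were not set beside them, so whether the numbers pair the arrays was not decided. With a replicate block 6637 genes were called for DMSO 24 h against 6 h (2998 higher, 3639 lower), 5351 for chlorothalonil, 5701 for the difference and 5464 for 72 h against 24 h. Over all alternatives, single genes kept their status in 3543 cases, lost the call in 75, gained it in 10 and reversed in 1. Status kept means the same direction and call for a called gene. A gene not called was counted as kept while it stayed uncalled, whatever its direction. Counts within lists stayed within 1.5 times in 1413 of the cases and not in 135. Calls lost mostly under the poly-A scale include B2m, Cdkn1b, Krt8, Mdm2, Sgk1, Spry2 and Top2a. The mean over probe sets ended the calls of Cdkn1a (−0.19), Psme4 (−0.18) and Ptpn14 (0.02). Genes near log2 4 are limited by background. Bounds are given where all arrays of a group lie there, and where only some do, the change rests on values near background.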

Other observations

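Some genes outside the lipid lists were bright at 24 h alone among the DMSO times. Ropn1l stood at 5.44, 10.67 and 5.55 at 6, 24 and 72 h, Aldoc at 3.55, 8.62 and 3.78 and Pfkfb4 at 5.14, 8.95 and 4.38. Mgp, at 3.68, 6.06 and 10.34, and Tmem176b, at 3.33, 8.47 and 12.18, were brighter at each later time. Probe sets of the same gene did not always move alike: the second probe set of Cdkn1b changed by 1.53 against 0.37 for the one used, that of Wipi1 by −0.05 against 1.48, and that of Nr3c1 by −0.48 against 1.19.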
